A study of Mus musculus with 15 samples.

Results

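The 50 genes described here encode the machinery of mitosis, from the kinases that start it to the proteins that condense, attach, separate and finally part the chromosomes. They were taken from a fixed list of symbols, and a probe belonged to a gene when the array's transcript identifier did. Of the 50 genes, 49 had a probe (Kif14, a motor protein of the cytokinetic bridge, had none) and 48 were tested, among 28025 genes and unnamed transcripts in all. Aurkb, the kinase of the chromosomal passenger complex, had a probe that was not well above background on any of the 15 arrays. Its processed signal lay between 2.71 and 6.32, and it has only a bound in every group, so no difference is given for it. The other 48 include Cenpf and Ttk, whose probes were well above background on 9 and 12 of the 15 arrays, and 46 genes measured above background on every array.

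Total RNA came from tumours in the mammary glands of female MMTV-PyMT mice, a transgenic line in which the mouse mammary tumour virus promoter drives the polyoma middle T oncogene mainly in mammary epithelium, and carcinomas arise in the glands. Samples were taken before treatment (T0, 4 arrays) or after treatment with vehicle (3 arrays), with B20, an antibody against VEGF given into the peritoneum at 5 mg per kg 2 times per week (4 arrays), or with nintedanib, an inhibitor of the VEGF, FGF and PDGF receptor kinases given by gavage at 85 mg per kg per day (4 arrays). All groups carried the transgene, and treatment started at 7 weeks of age. The labels give no age at collection and do not say what the vehicle was, and T0 replicate 4 carries a vehicle label beside its label as untreated; it was kept in T0, as its title has it. Nor do they state that each sample is a different mouse, and a p-value here therefore covers only array-to-array spread, which may be technical. A level is the log2 signal of a probe minus the 75th percentile of all probes on that array, and a difference of -1 stands for a signal that is lower by a factor of 2. A level was compared between arrays for 1 probe at a time, never between probes.

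As background, mitotic genes are silent or low for most of the cell cycle and are transcribed together in G2 and M phase. Their promoters are known for CCAAT boxes, which bind NF-Y, and for cell cycle genes homology regions (CHR), which bind the DREAM and MuvB complexes. In a tumour, the level of these transcripts is read as a measure of how many cells are dividing. In bulk RNA, fewer dividing cells and less transcript per dividing cell cannot be told apart.

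The RefSeq promoter windows of the assembly GRCm38.p6, from 250 bases before to 50 bases after each start, were searched on both strands for the box CCAAT, which reads ATTGG on the opposite strand. For CHR, the letters searched were TTTGAA, which on the opposite strand reads TTCAAA, and the variant TTCGAA, which is its own reverse complement. Neither motif can overlap the other by more than 1 base. The table held 44 windows for 42 of the 50 genes. CCAAT was in 33 of the 44 windows (75%), against 37.4% of all 32851 windows, and 21 windows (47.7%) held it at least 2 times, against 11.7%. A CHR match was in 35 windows (79.5%), against 19.2% of all. Both were in 30 windows (68.2%), against 7.5% of all windows and 39.7% of 68 windows of other mitosis genes. The shares were 14.3% of 35 windows of DNA replication genes and 0 of 18 windows of other genes of the anaphase-promoting complex. By role, both were in 5 of 5 windows of chromosome structure genes, 6 of 7 of cytokinesis, 3 of 4 of the spindle checkpoint, 3 of 4 of the anaphase trigger, 4 of 7 of the mitotic kinases and cyclins, 5 of 9 of spindle motors, 3 of 6 of centromere and kinetochore genes and 1 of 2 of the passenger complex. A match is a description of the letters and not a measured binding site.

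The promoters below are shown to set a spread of these windows, with and without each motif close to the start, beside genes of several roles whose levels follow array by array; they were chosen with those levels known. Each is given as the 150 bases that end at the annotated start, with CCAAT, CHR and their reverse complements in capitals. They are Cdk1 (chr10:69352913-69353062, minus strand), Ccnb1 (chr13:100786487-100786636, minus strand), Plk1 (chr7:122159285-122159434, plus strand), Cdc20 (chr4:118437344-118437493, minus strand), Kif11 (chr19:37376232-37376381, plus strand), Top2a (chr11:99024190-99024339, minus strand), Ncapd2 (chr6:125191587-125191736, minus strand), Ncapg (chr5:45669775-45669924, plus strand) and Smc2 (chr4:52439071-52439220, plus strand).
Cdk1: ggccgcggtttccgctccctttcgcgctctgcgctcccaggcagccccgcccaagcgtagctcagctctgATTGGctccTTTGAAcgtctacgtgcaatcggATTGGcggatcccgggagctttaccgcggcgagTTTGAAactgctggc
Ccnb1: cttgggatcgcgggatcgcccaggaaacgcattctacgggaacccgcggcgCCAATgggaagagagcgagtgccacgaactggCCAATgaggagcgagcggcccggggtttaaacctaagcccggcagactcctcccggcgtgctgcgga
Plk1: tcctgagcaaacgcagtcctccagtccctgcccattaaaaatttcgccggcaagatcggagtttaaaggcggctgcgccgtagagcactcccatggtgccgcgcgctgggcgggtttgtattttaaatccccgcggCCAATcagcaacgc
Cdc20: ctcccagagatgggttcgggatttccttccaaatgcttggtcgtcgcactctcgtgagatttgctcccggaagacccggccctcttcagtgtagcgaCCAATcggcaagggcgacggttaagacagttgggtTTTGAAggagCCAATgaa
Kif11: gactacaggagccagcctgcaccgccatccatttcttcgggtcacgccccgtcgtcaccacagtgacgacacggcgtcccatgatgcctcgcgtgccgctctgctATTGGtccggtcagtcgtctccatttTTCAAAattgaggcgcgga
Top2a: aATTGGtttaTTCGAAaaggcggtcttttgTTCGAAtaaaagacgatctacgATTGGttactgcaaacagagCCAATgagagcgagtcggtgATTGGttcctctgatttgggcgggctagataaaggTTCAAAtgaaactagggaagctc
Ncapd2: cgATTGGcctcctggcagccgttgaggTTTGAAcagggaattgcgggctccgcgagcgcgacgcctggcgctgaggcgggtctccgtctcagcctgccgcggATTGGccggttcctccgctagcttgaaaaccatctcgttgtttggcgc
Ncapg: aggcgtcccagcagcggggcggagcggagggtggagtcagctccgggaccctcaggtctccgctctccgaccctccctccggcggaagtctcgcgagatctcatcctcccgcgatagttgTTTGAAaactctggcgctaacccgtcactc
Smc2: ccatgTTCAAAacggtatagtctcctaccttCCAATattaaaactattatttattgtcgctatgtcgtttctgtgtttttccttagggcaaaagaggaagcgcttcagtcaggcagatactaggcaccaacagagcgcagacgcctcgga
In these stretches Top2a held 4 CCAAT and 3 CHR matches, and Cdk1 held 2 of each. Ccnb1, with 2 CCAAT matches, and Plk1, with 1, held no CHR match within the 150 bases, and Ncapg held 1 CHR match and no CCAAT.

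Across the 48 genes, each array can be given by its median level. The T0 arrays had medians of 0.85, 1.47, 2.05 and 2.22 in order of replicate number. Vehicle arrays had 1.70, 1.65 and 1.63, a spread of 0.03 (SD, n = 3) around a mean of 1.66. With B20 the medians were 1.09, 1.79, 1.40 and 1.36 (mean 1.41 ± 0.29, SD, n = 4), and with nintedanib 1.04, 1.36, 1.2 and 1.45 (mean 1.26 ± 0.18, SD, n = 4). All 4 nintedanib arrays lay below all 3 vehicle arrays, as did 3 of the 4 B20 arrays, whereas T0 reached both the lowest and the highest median of the 15 arrays (mean 1.64 ± 0.62, SD, n = 4). Counted against each gene's own median over the 15 arrays, 42, 47 and 32 of the 48 genes were above it on the vehicle arrays, 0, 34, 14 and 10 on the B20 arrays, and 5, 16, 6 and 21 on the nintedanib arrays. On T0 replicate 1 no gene was above its median, and on T0 replicates 3 and 4 it was 45 and 44.

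**Figure D1:**
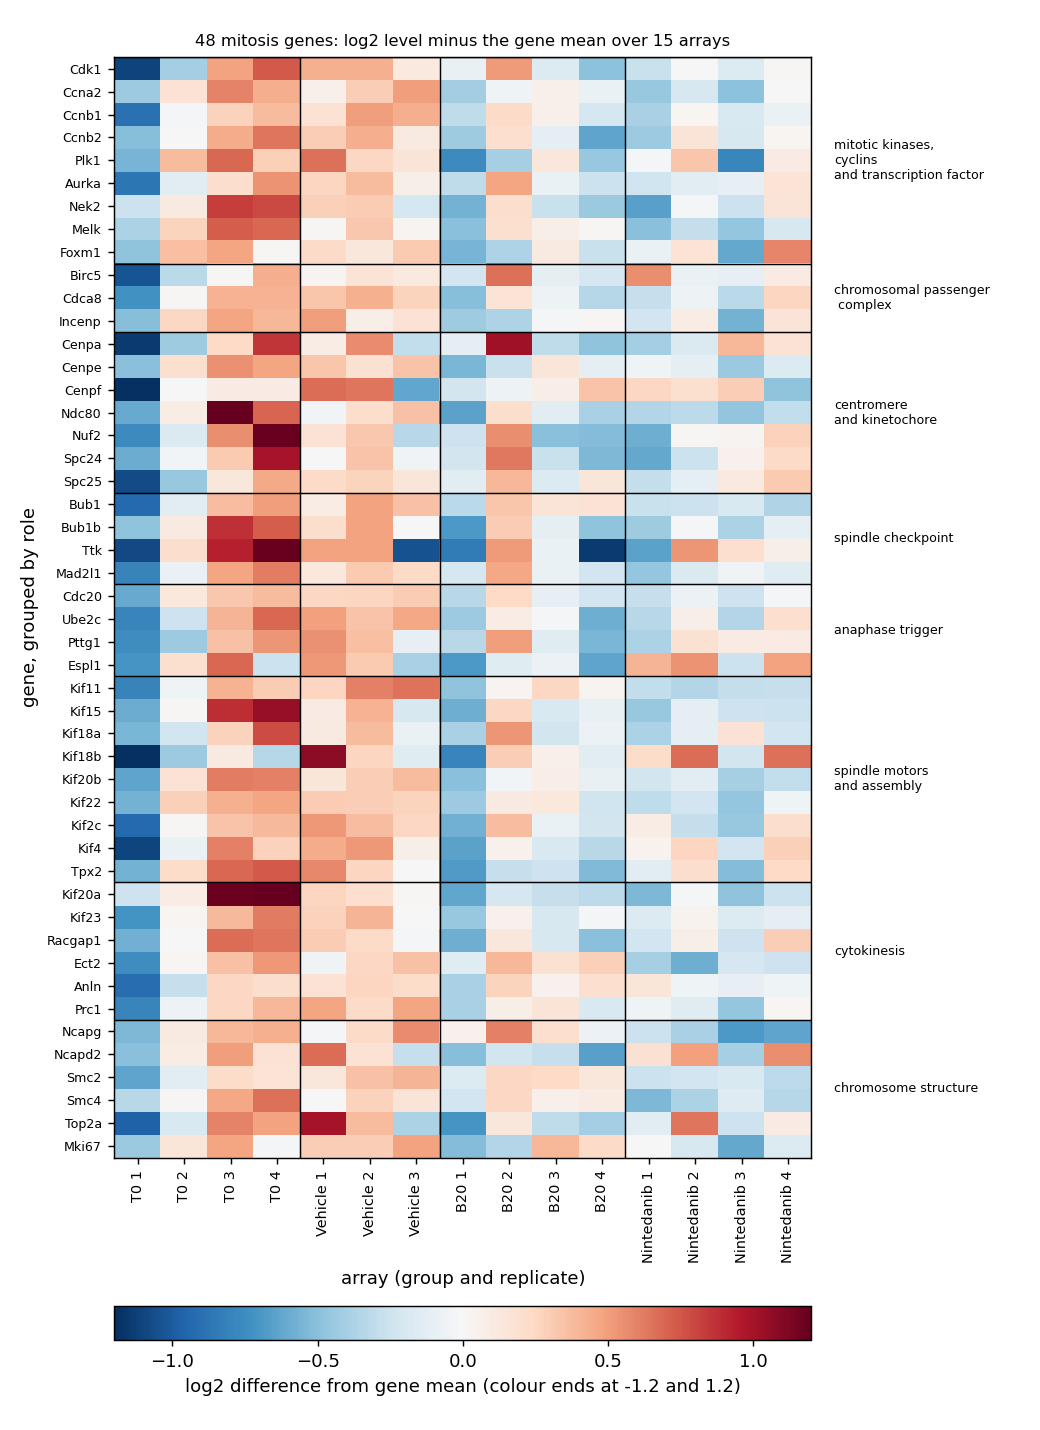
Heat map of the 48 genes (rows, grouped by role) on 15 arrays (columns, by group and replicate), coloured by log2 level minus the mean of that gene over all arrays, with the colour ending at -1.2 and 1.2. T0 replicate 1 and B20 replicate 1 are low throughout (0 of 48 genes above their own median), T0 replicates 3 and 4 and the vehicle arrays are mostly high, and the nintedanib arrays are mostly low.

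Tissue composition differed between these arrays, and its part in the results was not tested. Mean levels of 17 mammary epithelium markers, all detected in every group, were 3.45 at T0, 3.45 with vehicle, 3.44 with B20 and 3.46 with nintedanib. The 18 skeletal muscle markers averaged 6.38, 4.81, 2.55 and 0.77 on T0 replicates 1 to 4, -0.92, -0.79 and 1.68 with vehicle, 5.73, 0.15, 2.61 and -0.48 with B20, and 0.68, 1.13, 2.67 and -0.81 with nintedanib. The lowest array of T0 and the lowest of B20 in the mitosis genes were thus the arrays with the highest muscle markers of their groups. With nintedanib this was not so: the lowest array, replicate 1 (1.04), had muscle markers at 0.68, and the highest muscle markers of that group, 2.67, were on replicate 3. Adipocyte markers (16 genes) averaged 5.73, 5.28, 3.91 and 3.35 at T0, -1.58, -0.29 and 0.55 with vehicle, 2.51, 1.24, 2.04 and 0.22 with B20, and 0.16, 0.57, 1.68 and 2.94 with nintedanib. Between 16 and 17 of the 18 muscle markers and 14 to 16 of the 16 adipocyte markers were well above background on all arrays of a group. Endothelial markers averaged 0.62 at T0, -0.31 with vehicle, -0.83 with B20 and -0.46 with nintedanib. Macrophage markers (11 of 13 measured) averaged 1.83 at T0, 1.89 with vehicle, 2.01 with B20 and 2.14 with nintedanib, and 11 of 11 were higher than vehicle with nintedanib and 6 of 11 with B20. Markers of T and NK cells (13 of 15 measured) averaged -1.49, -2.19, -1.87 and -1.83 in the same order, with 12 of 13 higher than vehicle with nintedanib and 11 of 13 with B20. The 12 fibroblast markers averaged 3.66, 3.34, 3.09 and 3.23, with 9 of 12 lower than vehicle with nintedanib and 10 of 12 with B20. Adipocyte markers were higher than vehicle for 16 of 16 genes with nintedanib and 15 of 16 with B20, and muscle markers for 17 and 18 of 18. Endothelial markers were lower for 12 of 16 with nintedanib and 15 of 16 with B20, and epithelial markers for 7 and 8 of 17. Limma called none of the markers of any of these cell types against vehicle, where it called 0% of all genes. Slides also split the groups: T0 lay on 2 slides of its own, while 1 slide held 3 nintedanib, 3 B20 and 2 vehicle arrays and another held 1 array of each of those groups. On T0 replicate 3, 84.2% of all probes were well above background, against 53.4% to 68.1% on the other arrays.

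**Figure D2:**
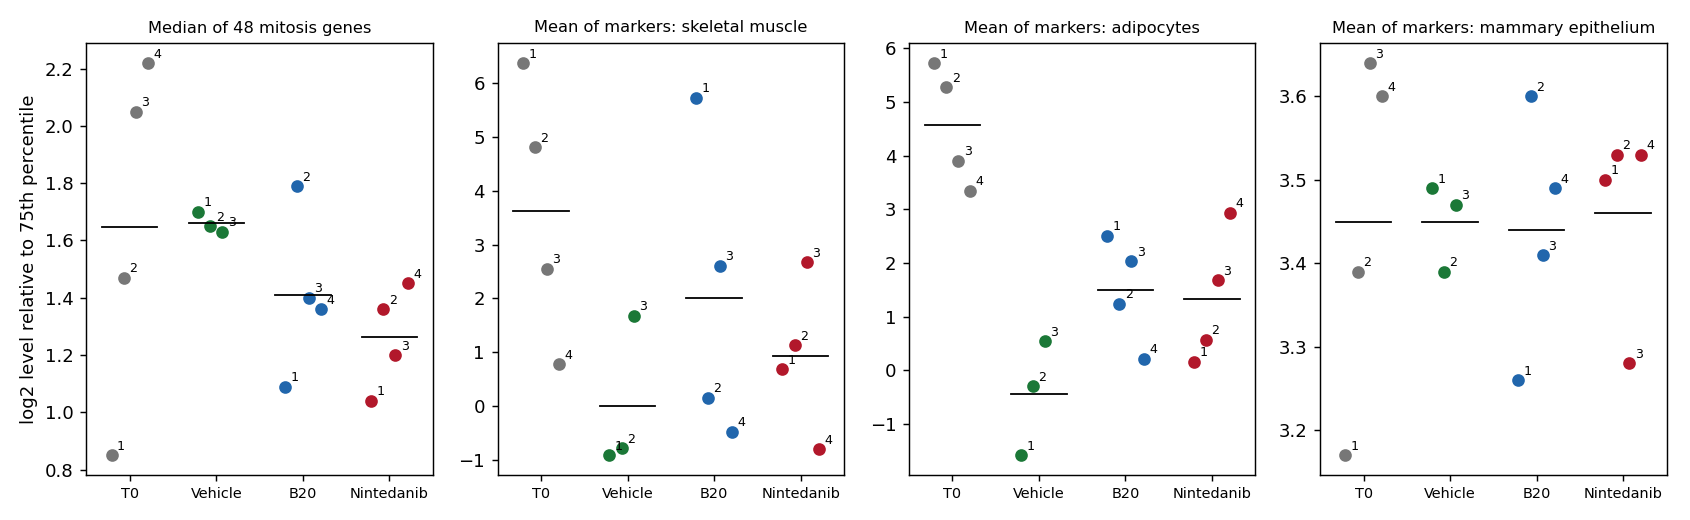
Points are arrays, numbered by replicate, in the 4 groups; bars are group means; the y axis is log2 level relative to the 75th percentile of the array, with its own range in each panel. The median of the 48 genes is lowest on T0 replicate 1 (0.85) and lies between 1.63 and 1.70 with vehicle; muscle markers are highest on T0 replicate 1 (6.38) and B20 replicate 1 (5.73), adipocyte markers are highest at T0, and epithelial markers stay between 3.17 and 3.64.

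The first comparison asked what nintedanib did to the mitotic programme relative to vehicle. The signal was lower with nintedanib for 44 of the 48 genes, where 51.2% of all genes were lower, with a median difference of -0.41 against -0.01 over all genes. The differences ran from -0.81 for Kif11, the plus-end motor that pushes the spindle poles apart, to 0.14 for Espl1, the separase that cuts cohesin. No gene passed limma's test at a Benjamini-Hochberg adjusted p of 0.05: 0 of the 48 and 0% of all 28025 were called, and the lowest adjusted p among the 48 was 0.875. At an unadjusted p under 0.05, 8 of the 48 (16.7%) were lower against 2.44% of all genes, and none was higher against 2.39%. For 24 of the 48 genes (50%) every nintedanib array lay below every vehicle array, against 4.15% of all genes. For none did every nintedanib array lie above, against 3.22%. With median scaling the count of 24 was 20 (5.76% of all genes). The 48 genes moved together on single arrays: 0 were above their own median on B20 replicate 1 and 47 on vehicle replicate 2. The counts here and in the comparisons below are therefore not 48 separate pieces of evidence. On the slide with 3 nintedanib and 2 vehicle arrays the median was -0.49 and 47 genes were lower; on the slide with 1 array of each it was -0.09 and 31 were lower. The count of 8 genes at the unadjusted threshold depended on single arrays. It was 4 without nintedanib replicate 1 (2.33% of all genes), 2 (1.96%) or 3 (2.34%), and 7 without nintedanib replicate 4 (1.82%). Without vehicle replicate 1 it was 6 (3.9%), without vehicle replicate 2 it was 3 (2.01%) and without vehicle replicate 3 it was 1 (1.12%).

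The second comparison asked the same of B20. All 48 genes had a lower signal than with vehicle, where 44.9% of all genes did and 55.1% were higher, with a median of -0.41 against 0.04 over all genes. The range ran from -0.72 for Plk1, the polo kinase that acts at centrosomes and kinetochores, to -0.01 for Ect2, an exchange factor of the cleavage furrow. Limma called 0 of the 48 and 0% of all genes, and the lowest adjusted p (Benjamini-Hochberg) among the 48 was 0.998. With B20, 3 genes (6.25%) were lower at an unadjusted p under 0.05 against 1.46% of all, and none was higher against 1.79%. For 14 genes (29.2%) the B20 arrays all lay below the vehicle arrays, against 2.59% of all genes, and none lay above, against 2.81%. That count of 14 was 10 with median scaling (2.68% of all genes) and 11 with quantile normalisation (3.09%) or the authors' values (2.89%). With scaling on epithelial markers it was 15 (2.37%). Within slides the median was -0.44 (45 of 48 lower) and -0.38 (44 of 48 lower). Without B20 replicate 1 the median was -0.30 and 46 genes were lower. Leaving out 1 array also moved the smaller counts. The count of genes without overlap can then only stay or rise, for members and all genes alike, since fewer arrays have to be cleared. It was 14 to 19 without B20 replicate 1, 3 or 4 or vehicle replicate 1 or 2 (3.35% to 6.6% of all genes). Without B20 replicate 2 it was 29 (5.54%), and without vehicle replicate 3 it was 23 (6.24%). At the unadjusted threshold no member was left without B20 replicate 1 (0.888% of all genes), B20 replicate 4 (1.32%) or vehicle replicate 2 (1.89%). There was 1 without vehicle replicate 1 (0.778%), and there were 5 without B20 replicate 2 (1.61%) or vehicle replicate 3 (1.81%). Without B20 replicate 3 there were 6 (1.74%). The nintedanib and B20 comparisons share the 3 vehicle arrays, so their values are given side by side below and are not 2 separate pieces of evidence.

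**Figure D3:**
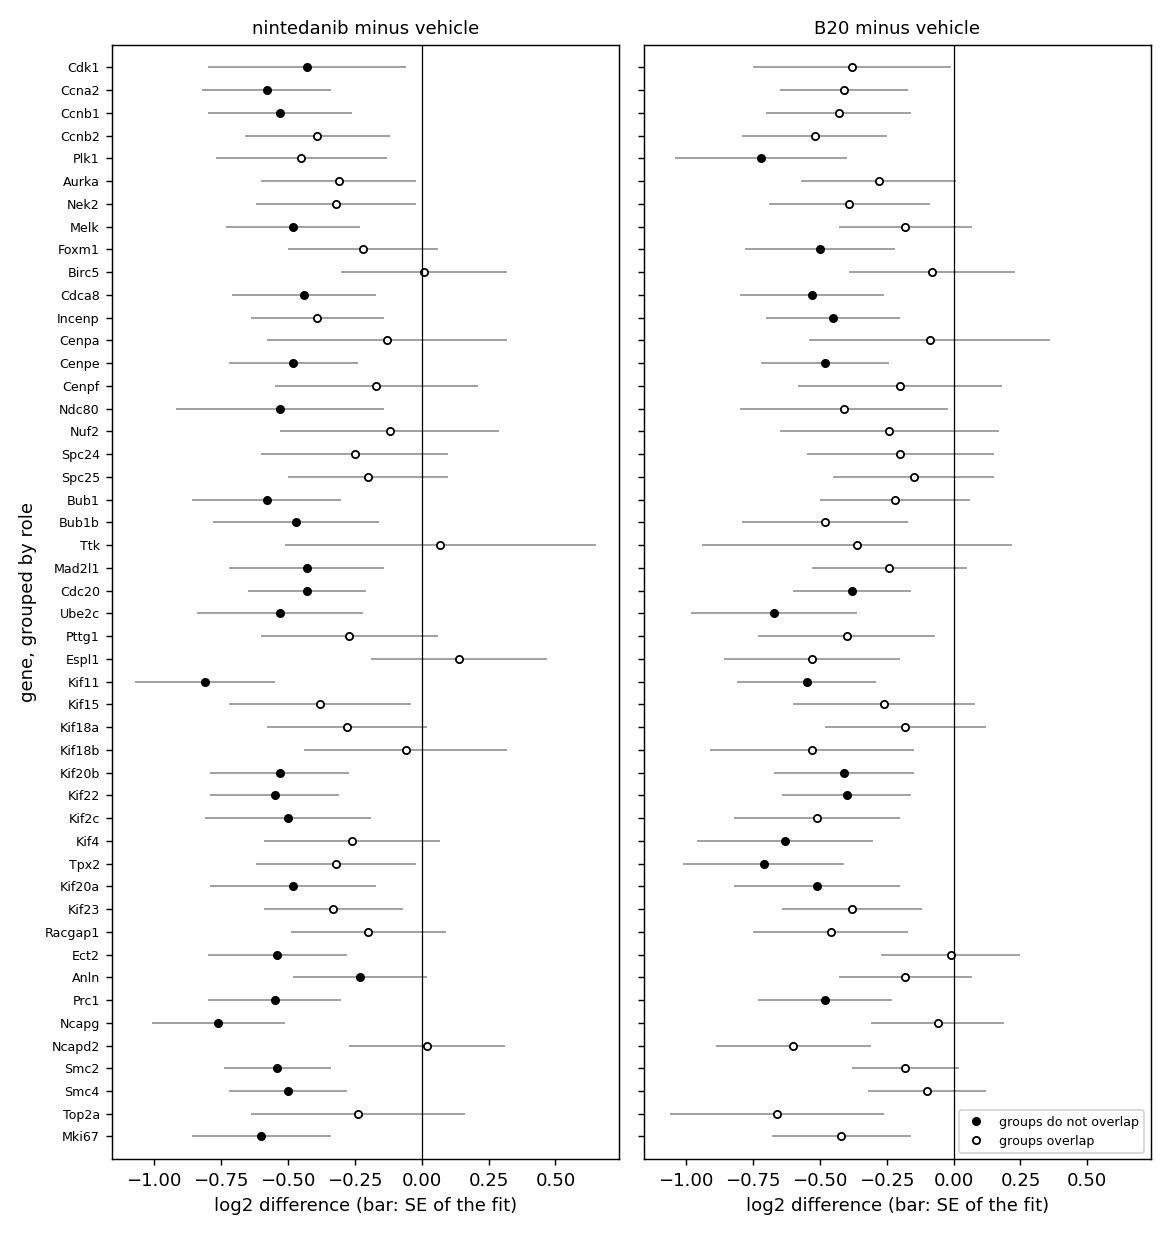
Log2 difference from vehicle for each of the 48 genes (rows, by role) with nintedanib (left) and B20 (right); bars are the SE of limma's fit, filled points mark genes whose 2 groups do not overlap. With nintedanib 44 points lie below 0 and 24 are filled; with B20 all 48 lie below 0 and 14 are filled.

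The kinases, cyclins and transcription factor that drive entry into mitosis were 9 genes, all 9 lower than vehicle with either drug (medians -0.43 with nintedanib and -0.41 with B20) and none called. Cdk1, the kinase that commits the cell to mitosis, measured 1.42, 1.42 and 1.11 with vehicle, 0.73, 0.99, 0.83 and 1.01 with nintedanib, 0.91, 1.51, 0.83 and 0.50 with B20, and -0.11, 0.59, 1.48 and 1.73 at T0. All nintedanib arrays were below all vehicle arrays (-0.43 ± 0.37, SE), while B20 replicate 2 was above every vehicle array (-0.38 ± 0.37). A dimmer Cdk1 probe, well above background on 11 of the 15 arrays, gave 0.04 with nintedanib and -0.35 with B20. Ccnb1, the cyclin B1 partner of Cdk1, measured 2.59, 2.91 and 2.85 with vehicle, 2.02, 2.44, 2.23 and 2.33 with nintedanib, 2.11, 2.64, 2.47 and 2.20 with B20, and 1.52, 2.40, 2.69 and 2.79 at T0. Its nintedanib arrays were again all below vehicle (-0.53 ± 0.27), and 1 B20 array reached into the vehicle range (-0.43 ± 0.27). Ccna2, cyclin A2, lay 0.58 ± 0.24 below vehicle with nintedanib, the lowest difference of this group of genes, with 2.60, 2.86, 2.56 and 3.05 against 3.12, 3.35 and 3.56.

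Plk1 measured 3.48, 3.06 and 2.97 with vehicle, 2.05, 2.42, 2.95 and 2.36 with B20, 2.79, 3.15, 2.03 and 2.91 with nintedanib, and 2.26, 3.19, 3.50 and 3.1 at T0. B20 arrays were all below vehicle, replicate 3 only just, for a difference of -0.72 ± 0.32 (1.65-fold lower; unadjusted p in limma 0.0420, adjusted 0.998), and with nintedanib 1 array lay within the vehicle range (-0.45 ± 0.32). Aurka, the centrosomal kinase that matures the spindle poles, measured 2.75, 2.88 and 2.57 with vehicle, 2.19, 2.97, 2.42 and 2.24 with B20, 2.26, 2.37, 2.40 and 2.66 with nintedanib, and 1.63, 2.36, 2.71 and 3.04 at T0. Both drug groups overlapped vehicle for Aurka (-0.28 ± 0.29 and -0.31 ± 0.29). Nek2, a kinase that separates centrosomes, measured -0.06, -0.04 and -0.55 with vehicle, -0.91, -0.13, -0.61 and -0.79 with B20, -0.99, -0.36, -0.60 and -0.19 with nintedanib, and -0.60, -0.23, 0.49 and 0.45 at T0, with overlap in every comparison. Foxm1, a transcription factor of G2 and M phase genes, measured 0.40, 0.30 and 0.48 with vehicle, -0.39, -0.20, 0.28 and -0.10 with B20, 0.09, 0.33, -0.45 and 0.75 with nintedanib, and -0.31, 0.53, 0.64 and 0.18 at T0. B20 arrays were all below vehicle (-0.50 ± 0.28), whereas nintedanib replicate 4 had the highest Foxm1 level of the 15 arrays (-0.22 ± 0.28). A dimmer Foxm1 probe gave 0.00 with nintedanib and -0.72 with B20.

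In the chromosomal passenger complex, which corrects faulty attachments and moves to the midzone at anaphase, 3 of the 4 genes were measured. Birc5, survivin, measured 5.41, 5.55 and 5.50 with vehicle, 5.94, 5.30, 5.28 and 5.48 with nintedanib, 5.15, 6.04, 5.26 and 5.18 with B20, and 4.35, 5.06, 5.40 and 5.82 at T0. One array of each drug group lay above vehicle and the others within or below its range, for differences of 0.01 ± 0.31 and -0.08 ± 0.31. Its 2 dimmer probes gave 0.15 and 0.34 with nintedanib. Cdca8 (borealin) and Incenp, the other subunits, differed from vehicle by -0.44 ± 0.27 and -0.39 ± 0.25 with nintedanib and by -0.53 ± 0.27 and -0.45 ± 0.25 with B20, though a second, dimmer Cdca8 probe gave 0.02 with nintedanib.

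The 7 centromere and kinetochore genes had the smallest differences of the 8 role groups, with medians of -0.20 for either drug and all 7 below 0. Cenpa, the histone H3 variant that marks the centromere, measured 2.19, 2.67 and 1.80 with vehicle, 1.69, 1.93, 2.5 and 2.27 with nintedanib, 1.99, 3.12, 1.79 and 1.62 with B20, and 0.95, 1.67, 2.34 and 2.96 at T0. Its groups overlapped widely (-0.13 ± 0.45 and -0.09 ± 0.45). Ndc80, the microtubule-binding subunit of the outer kinetochore, measured -0.45, -0.21 and -0.07 with vehicle, -0.77, -0.73, -0.89 and -0.71 with nintedanib, -1.06, -0.21, -0.55 and -0.81 with B20, and -1.02, -0.33, 1.24 and 0.28 at T0. The 4 nintedanib arrays lay close together and below vehicle (-0.53 ± 0.39). Cenpe, the kinetochore motor that carries chromosomes to the equator, had no overlap with vehicle in either drug group (-0.48 ± 0.24 for both). Nuf2, Spc24 and Spc25, which share a complex with Ndc80, differed by -0.12 to -0.25 with nintedanib and by -0.15 to -0.24 with B20, and all overlapped vehicle.

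Among 4 spindle checkpoint genes, which hold anaphase back until every kinetochore is attached, 3 were lower with nintedanib and all 4 with B20. Bub1, the checkpoint kinase at kinetochores, measured 0.22, 0.61 and 0.48 with vehicle, -0.14, -0.13, -0.05 and -0.23 with nintedanib, -0.19, 0.46, 0.28 and 0.30 with B20, and -0.80, 0.00, 0.50 and 0.63 at T0. Nintedanib arrays lay together below vehicle (-0.58 ± 0.28), and 3 of the 4 B20 arrays were within the vehicle range (-0.22 ± 0.28). Ttk, the MPS1 kinase, was not well above background on 3 arrays and differed by 0.07 ± 0.58 with nintedanib and -0.36 ± 0.58 with B20. Bub1b, the BubR1 inhibitor of the anaphase-promoting complex, and Mad2l1, its partner, differed by -0.47 ± 0.31 and -0.43 ± 0.29 with nintedanib, without overlap, and by -0.48 ± 0.31 and -0.24 ± 0.29 with B20, with overlap.

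Genes that trigger anaphase gave medians of -0.35 with nintedanib and -0.46 with B20 over 4 members. Cdc20, the activator of the anaphase-promoting complex, measured 4.51, 4.52 and 4.57 with vehicle, 3.98, 4.19, 4.01 and 4.24 with nintedanib, 3.93, 4.50, 4.16 and 4.03 with B20, and 3.66, 4.39, 4.58 and 4.64 at T0. Both drug groups lay below the narrow vehicle range, B20 replicate 2 by 0.01 (-0.43 ± 0.22 and -0.38 ± 0.22). Ube2c, the ubiquitin-conjugating enzyme of that complex, measured 3.67, 3.52 and 3.64 with vehicle, 2.74, 3.27, 3.16 and 2.59 with B20, 2.85, 3.25, 2.83 and 3.38 with nintedanib, and 2.39, 2.93, 3.59 and 3.87 at T0. Neither drug group overlapped vehicle (-0.67 ± 0.31 with B20, unadjusted p in limma 0.0479, adjusted 0.998; -0.53 ± 0.31 with nintedanib), and a second Ube2c probe gave -0.80 and -0.36. Other genes of the same ubiquitin ligase, 16 outside the 50, had medians of -0.10 with nintedanib and -0.05 with B20, and none was called against vehicle. The list held its subunits and also Fzr1, an activator, and Ube2s, a conjugating enzyme. Pttg1, the securin that restrains separase, differed by -0.27 ± 0.33 with nintedanib and -0.40 ± 0.33 with B20. A dimmer Pttg1 probe, well above background on all 15 arrays, gave 0.05 and -0.19. Espl1 differed by 0.14 ± 0.33 with nintedanib and -0.53 ± 0.33 with B20.

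Spindle motors and assembly factors, 9 of 10 measured, were all lower than vehicle with both drugs, with medians of -0.38 (nintedanib) and -0.51 (B20). Kif11 measured -0.06, 0.28 and 0.33 with vehicle, -0.62, -0.67, -0.61 and -0.60 with nintedanib, -0.80, -0.29, -0.07 and -0.29 with B20, and -1.12, -0.37, 0.10 and -0.02 at T0. The nintedanib arrays agreed within 0.03 (SD, n = 4) and lay well below vehicle, for a difference of -0.81 ± 0.26 (1.75-fold lower; unadjusted p in limma 0.00813, adjusted 0.875), and B20 was lower by a smaller margin and without overlap (-0.55 ± 0.26). Tpx2, which activates Aurka and nucleates spindle microtubules, measured 1.67, 1.35 and 1.10 with vehicle, 0.42, 0.82, 0.85 and 0.57 with B20, 0.97, 1.31, 0.58 and 1.34 with nintedanib, and 0.53, 1.32, 1.79 and 1.83 at T0. B20 did not overlap vehicle (-0.71 ± 0.30, unadjusted p in limma 0.0336, adjusted 0.998), while nintedanib did (-0.32 ± 0.30); a dimmer probe for another Tpx2 transcript gave 0.03 with B20. Kif18b, a motor that trims astral microtubules, measured -1.65, -2.46 and -2.87 with vehicle, -3.51, -2.43, -2.66 and -2.85 with B20, -2.5, -2.05, -2.94 and -2.06 with nintedanib, and -4, -3.16, -2.61 and -3.06 at T0. Its groups overlapped in all comparisons, and its B20 difference was -0.53 from these values and -0.24 with normexp. Kif22, the chromokinesin that moves chromosome arms, and Kif20b, a motor of late mitosis, were below vehicle without overlap under either drug, by 0.55 ± 0.24 and 0.53 ± 0.26 with nintedanib and by 0.40 ± 0.24 and 0.41 ± 0.26 with B20.

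Cytokinesis genes, 6 in all, were lower with both drugs (medians -0.40 and -0.42). Racgap1, a centralspindlin subunit of the midzone, measured 2.35, 2.28 and 2.02 with vehicle, 1.46, 2.18, 1.85 and 1.54 with B20, 1.82, 2.12, 1.80 and 2.34 with nintedanib, and 1.47, 2.05, 2.72 and 2.69 at T0, and overlapped vehicle in both drug groups (-0.46 ± 0.29 and -0.20 ± 0.29). Ect2, its binding partner, measured 1.17, 1.46 and 1.56 with vehicle, 0.81, 0.62, 1.01 and 0.96 with nintedanib, 1.06, 1.61, 1.39 and 1.49 with B20, and 0.46, 1.23, 1.56 and 1.73 at T0. Here nintedanib lay below vehicle without overlap (-0.54 ± 0.26) and B20 was level with it (-0.01 ± 0.26). Kif20a, the motor that brings the passenger complex to the midzone, measured 1.61, 1.56 and 1.37 with vehicle, 0.82, 1.34, 0.87 and 1.10 with nintedanib, 0.73, 1.15, 1.08 and 1.04 with B20, and 1.11, 1.44, 2.53 and 2.57 at T0. Both drug groups lay below vehicle without overlap (-0.48 ± 0.31 and -0.51 ± 0.31). Prc1, which bundles the microtubules of the midzone, did so too (-0.55 ± 0.25 with nintedanib and -0.48 ± 0.25 with B20).

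Chromosome structure genes, 6 in all, were lower than vehicle in 5 cases with nintedanib and 6 with B20. Among them, 4 had an unadjusted p in limma under 0.05 with nintedanib (against 2.44% of all genes), and these belong to the 8 genes above. With 1 array left out, that count of 8 ran from 1 (without vehicle replicate 3) to 7 (without nintedanib replicate 4). Smc2 and Smc4 are the ATPase core of condensin, the complex that compacts mitotic chromosomes, and Ncapg and Ncapd2 are subunits of condensin I. Smc2 measured 2.38, 2.59 and 2.65 with vehicle, 1.98, 2.01, 2.06 and 1.93 with nintedanib, 2.08, 2.49, 2.48 and 2.38 with B20, and 1.61, 2.12, 2.46 and 2.41 at T0. Smc4 measured 3.17, 3.45 and 3.33 with vehicle, 2.63, 2.79, 3.02 and 2.83 with nintedanib, 2.94, 3.42, 3.23 and 3.27 with B20, and 2.84, 3.19, 3.64 and 3.83 at T0. For both, all nintedanib arrays lay below all vehicle arrays (-0.54 ± 0.20 for Smc2, -0.50 ± 0.22 for Smc4), and B20 lay near vehicle (-0.18 ± 0.20 and -0.10 ± 0.22). Ncapg, a dim probe, measured -3.63, -3.39 and -3.05 with vehicle, -3.88, -4.01, -4.31 and -4.25 with nintedanib, -3.57, -3.01, -3.42 and -3.69 with B20, and -4.16, -3.51, -3.22 and -3.19 at T0. Nintedanib lay below vehicle without overlap (-0.76 ± 0.25; 1.69-fold lower; unadjusted p in limma 0.00954, adjusted 0.888) and B20 did not stand apart from it (-0.06 ± 0.25). The Ncapg value depended on the background correction: with normexp it was -0.31 ± 0.15 for nintedanib (adjusted p in limma 1) and 0.14 ± 0.15 for B20, and with the authors' values the nintedanib difference was -0.24 ± 0.12. Ncapd2 went the other way between the drugs, with 3.09, 2.59 and 2.14 with vehicle, 2.60, 2.91, 2.02 and 2.98 with nintedanib, 1.91, 2.20, 2.14 and 1.77 with B20, and 1.92, 2.51, 2.92 and 2.59 at T0. It was level with vehicle under nintedanib (0.02 ± 0.29) and lower by 0.60 ± 0.29 under B20, with B20 replicates 2 and 3 reaching the lowest vehicle array.

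Top2a, the topoisomerase that disentangles sister chromatids, measured 1.73, 1.11 and 0.35 with vehicle, 0.59, 1.37, 0.48 and 0.83 with nintedanib, 0.02, 0.86, 0.42 and 0.32 with B20, and -0.24, 0.54, 1.32 and 1.21 at T0. The vehicle arrays themselves spanned most of its range, and both drug groups overlapped them (-0.24 ± 0.40 and -0.66 ± 0.40). Mki67, the Ki-67 surfactant of mitotic chromosomes and the usual marker of proliferation, measured 4.54, 4.54 and 4.73 with vehicle, 4.25, 4.05, 3.63 and 4.08 with nintedanib, 3.73, 3.89, 4.64 and 4.48 with B20, and 3.80, 4.39, 4.72 and 4.22 at T0. Nintedanib arrays were all below vehicle (-0.60 ± 0.26), and a second Mki67 probe gave -0.84. With B20, replicates 1, 2 and 4 were below vehicle and replicate 3 was within its range (-0.42 ± 0.26).

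The direct comparison of the drugs had 24 genes higher and 24 lower with nintedanib than with B20, where 55.3% of all genes were lower, and a median of -0.01, against -0.04 over all genes. Limma called 0 of the 48 and 0% of all genes, and the lowest adjusted p (Benjamini-Hochberg) was 0.517. At an unadjusted p under 0.05, 2 genes were lower (4.17%, against 5.49% of all genes) and 2 higher (4.17%, against 3.90%). Single genes differed in both directions. Ncapg was lower with nintedanib than with B20 by 0.69 ± 0.23 (unadjusted p in limma 0.0103, adjusted 0.517), Ect2 by 0.54 ± 0.24 and Smc2 by 0.36 ± 0.18, each without overlap between the 4 and 4 arrays. For Ncapg the size again moved, to -0.46 ± 0.14 with normexp and -0.23 ± 0.11 with the authors' values. These 3 were the only members without overlap. Lower without overlap were thus 6.25%, against 3.62% of all genes, and none was higher, against 2.12% of all genes. Smc4 differed by -0.40 ± 0.20 with overlap. In the other direction stood Espl1 (0.67 ± 0.31) and Ncapd2 (0.62 ± 0.27), both overlapping through nintedanib replicate 3. Within the slide of 3 and 3 arrays the differences were -0.74 for Ncapg, -0.54 for Ect2, -0.33 for Smc2 and 0.42 for Ncapd2, and on the slide with 1 array of each they were -0.56, -0.53, -0.45 and 1.2. The 10 genes of cohesin, the related ring complex, and of its regulators lie outside the 50. They had a median of -0.28 with nintedanib against B20 and 9 of 10 below 0, with none called.

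**Figure D4:**
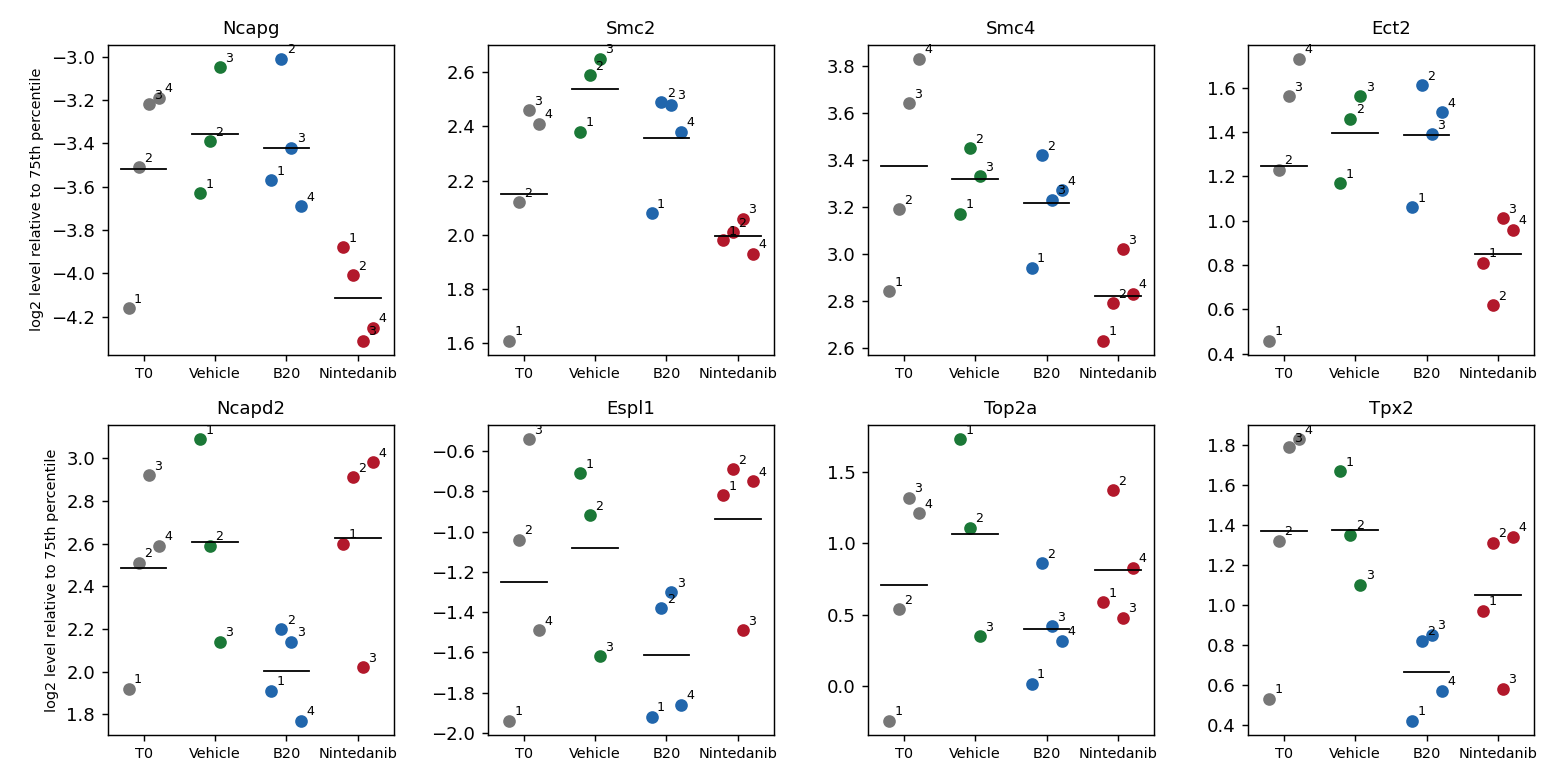
Log2 level relative to the 75th percentile of the array for 8 genes, Espl1, Top2a and Tpx2 among them, picked after their values were seen; points are arrays numbered by replicate, bars are group means, and each panel has its own y range. Ncapg, Smc2 and Ect2 are lower on all 4 nintedanib arrays than on all 4 B20 arrays, whereas Ncapd2 and Espl1 are higher on 3 of the 4 nintedanib arrays than on all 4 B20 arrays.

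Comparisons with T0 asked how tumours at the end of treatment differed from those before it. The T0 arrays lay on their own slides, were scanned on another day and were read with another version of the extraction protocol, so batch and group cannot be told apart here. From T0 to vehicle 37 of the 48 genes were higher, where 54% of all genes were, with a median of 0.16 against 0.04 over all genes. Limma called 0 of the 48 at an adjusted p (Benjamini-Hochberg) under 0.05, where 2.13% of all genes were called lower and 2.80% higher. Kif18b had the lowest p (0.88 ± 0.38, unadjusted p 0.0347, adjusted 0.194; 0.44 ± 0.18 with normexp), followed by Kif11 (0.54 ± 0.26) and Smc2 (0.39 ± 0.20). At an unadjusted p under 0.05 no member was lower, against 9.02% of all genes, and 1 was higher, against 12.3%. No member had T0 and vehicle arrays apart, whereas 6.97% of all genes lay lower and 9.71% higher without overlap. The direction rested on T0 replicate 1: without it the median was -0.07 and 29 of the 48 genes were lower with vehicle.

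Against T0, nintedanib arrays were lower for 37 genes (median -0.22, 0.01 over all genes) and B20 arrays for 35 (median -0.23, 0.08 over all genes). Over all genes, 51.1% were higher than T0 with nintedanib and 56.4% with B20. None of the 48 was called in either comparison, against 4.62% of all genes lower and 6.82% higher with nintedanib and 3.73% and 5.78% with B20. Unadjusted, 6 members were lower with nintedanib (12.5%, against 12.3% of all genes) and 1 higher (against 16%), and 3 were lower with B20 (against 10.1%). No member was free of overlap with T0, where 7.46% of all genes lay lower and 9.38% higher with nintedanib and 6.21% and 9.28% with B20. Kif20a was the nearest to the threshold in both, with -0.88 ± 0.29 for nintedanib (1.84-fold lower; adjusted p in limma 0.0659) and -0.91 ± 0.29 for B20 (1.88-fold lower; adjusted p 0.0650); with array weights the Kif20a differences were -0.43 and -0.55. Its levels on T0 replicates 3 and 4 were above every other array, while T0 replicates 1 and 2 were inside or close to the range of the treated arrays. Melk, a kinase of proliferating cells, measured 0.66, 1.31, 1.77 and 1.73 at T0, 1.05, 1.36 and 1.07 with vehicle, 0.54, 1.23, 1.11 and 1.05 with B20, and 0.54, 0.75, 0.58 and 0.85 with nintedanib. Nintedanib overlapped T0 only through T0 replicate 1 (-0.69 ± 0.24, adjusted p in limma 0.0746). Smc4 followed with -0.55 ± 0.20 (adjusted 0.0932), and for B20 it was Tpx2 (-0.70 ± 0.28, adjusted 0.126) and Nek2 (-0.64 ± 0.27, adjusted 0.157).

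Leaving out T0 replicate 1 ended that count of 0. Limma then called 8 of the 48 genes lower with nintedanib, against 2.51% of all genes, with 45 of 48 below 0 and a median of -0.46. They were Ndc80 (-1.17 ± 0.31), Kif20a (-1.15 ± 0.26), Melk (-0.92 ± 0.19), Ncapg (-0.81 ± 0.20), Smc4 (-0.73 ± 0.18), Kif20b (-0.72 ± 0.18), Ccna2 (-0.69 ± 0.19) and Kif22 (-0.66 ± 0.17), with adjusted p from 0.0207 to 0.0491. With all 4 T0 arrays the Ncapg difference was -0.59, and -0.37 with normexp. With B20 it called 2, Kif20a (-1.18 ± 0.26, adjusted p 0.0326) and Tpx2 (-0.98 ± 0.23, adjusted p 0.0385), against 1.56% of all genes, with 45 below 0 and a median of -0.50. Without T0 replicate 3 instead, none of the 48 was called lower than T0, and 31 genes were below 0 with nintedanib and 28 with B20. T0 replicate 4 also carries a vehicle label. Without it, limma called 0 of the 48 lower than T0 with vehicle (3.7% of all genes), nintedanib (6.01%) or B20 (5.01%). It also called 0 higher, against 3.79%, 7.43% and 6.78% of all genes. T0 replicate 1 was the array with the highest muscle and adipocyte markers and the lowest epithelial markers (3.17) of the 15, and the part of these in its low mitosis levels was not tested.

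Other genes of the cell cycle give the setting for these values. Of 71 measured mitosis genes outside the 50, 58 were lower with nintedanib than with vehicle (median -0.30) and 65 with B20 (median -0.27). DNA replication genes, 39 in all, were lower in 35 cases with nintedanib (median -0.31) and in 32 with B20 (median -0.26). Another 20 genes act before S phase or hold the cycle back: G1 cyclins and their kinases, CDK inhibitors, and E2f and Rb family genes. Their medians were -0.08 and -0.12, with 11 and 13 lower. Genes of cohesin, which holds sister chromatids from S phase on, and of its regulators had medians of -0.21 with nintedanib and 0.01 with B20. No gene of these lists was called by limma against vehicle. Whether the lists differ from one another was not tested.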

How the data were processed

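The files hold 1 scanner output per array and 1 table of the series. Per the file headers, Feature Extraction 10.7.3.1 made the spot intensity (processed signal) by subtracting background and detrending within each array; the deposited raw median signal and local background of each spot are intensities too, used for normexp, and its flags are 0 or 1. The authors' deposited table holds log2 values of unstated making; they matched normexp (offset 50) with quantile normalisation (median r over arrays 0.999914; column medians 6.616 to 6.627, not centred, higher meaning brighter).

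Control and outlier spots were left out, 59305 spots of 55681 probes were averaged per probe, log2 signals were scaled to each array's 75th percentile, and a probe was kept if well above background on 3 or more of the 15 arrays. In 82 cases over all probes, none of a mitosis gene, a missing value took the probe's mean. No spot was saturated. Median raw signal was 55 to 102 over a local background of 19 to 26; the number of arrays limits precision (median SE 0.29 log2 against vehicle, 0.27 for 4 against 4). Probes were named through RefSeq (GRCm38.p6, names and promoters only), and the brightest probe stood for a gene, so 16096 of 28025 features had a symbol.

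In R 4.3.3, limma 3.58.1 fitted 4 group means to all 15 arrays (lmFit, eBayes, two-sided, Benjamini-Hochberg over all features, called under 0.05). Errors are SEs of the fit or SDs. Normexp ran on the median spot and background signals. Same-numbered replicates did not deviate together (4 of 21 pairs had r over 0.1, range -0.25 to 0.38), so numbers were not used as pairs. The test was tried on simulated data. The members and all gene lists were chosen with earlier results of these data known. Values per array are given for 16 genes chosen for their roles and for the 3 genes with the lowest unadjusted p in each comparison; others are named by role or as extremes. Alternatives covered background correction, scaling, filter, probes, slide, replicate block, array weights and each array left out; scaling on epithelial markers was added after seeing the data.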

Additional observations from a re-analysis of the deposited data

Results flagged for a closer look

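Dixon's test found 5 values far from the other arrays of their group, among 147 sets of 4 arrays tested; chance marks about 1 in 20 sets. Cenpf, a kinetochore protein with a dim probe, was -5.81 on T0 replicate 1, where the nearest T0 array was at -4.52. It was also low, at -5.01, on nintedanib replicate 4, against -4.34 on the nearest. Birc5 was high on B20 replicate 2, at 6.04 against 5.26. Pttg1 was 2.81 on nintedanib replicate 1, against 3.29. Espl1 was -1.49 on nintedanib replicate 3, against -0.82, and its difference from B20 of 0.67 ± 0.31 includes that array.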

How the results depend on the processing

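The median of the 48 genes stayed below 0 against vehicle in every alternative run, -0.47 to -0.35 with nintedanib and -0.48 to -0.30 with B20 when 1 array was left out, with 41 to 47 and 45 to 48 genes lower. Nintedanib minus B20 had no stable sign: 0.03 with quantile normalisation, 0.03 with the authors' values, 0.01 with the mean of probes, 0.05 with array weights and -0.10 to 0.10 with 1 array left out (15 to 33 genes lower). Vehicle minus T0 ran from -0.07 to 0.31 with 1 array left out (5 to 29 genes lower), and 1 gene was lower with array weights. Genes called lower than T0 numbered 1 for nintedanib with the authors' values (5.01% of all genes), with no filter (2.69%) or with probes above background on all 15 arrays (6.26%), 1 for B20 with the authors' values (4.12%) or all 15 arrays (4.59%), and, with epithelial scaling, 2 (3.17%) and 1 (2.4%); leaving out 1 array gave 0 to 8 and 0 to 2, the highest without T0 replicate 1 (2.51% and 1.56%). Array weights called 2 of 48 higher with vehicle than T0, against 10.9% of all genes, and 1 higher with nintedanib, against 16.7%. The cause of these moves was not tested. The replicate block gave medians of -0.47, -0.45, -0.01, 0.21, -0.22 and -0.23 for nintedanib and B20 minus vehicle, nintedanib minus B20, and vehicle, nintedanib and B20 minus T0, and changed no call among the 48.

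Counts over all genes moved widely against T0: 597 lower and 784 higher with vehicle (9 to 2222 and 8 to 3053 over alternatives), 1296 and 1912 with nintedanib (497 to 3251 and 843 to 4670), and 1046 and 1620 with B20 (343 to 2201 and 547 to 3862), the lowest mostly with only the 2 groups fitted and the highest with array weights. Against vehicle, array weights called 12 genes higher with nintedanib, and fitting only 2 groups called 1 higher with nintedanib than B20. Normexp moved the median of all genes in nintedanib minus B20 from -0.04 to -0.16. Cenpf and Ttk were near background, which limits their values.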
